A study of Bos taurus with 12 samples.

Results

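The regions described here are the m6A peaks that the authors' annotation places in the 5' untranslated region (5' UTR) of a transcript. All entries annotated 5' UTR were taken from the peak list of each oocyte stage and from the table of peaks that differ between the stages, and were joined to input expression through the gene identifier. They were 616 of 14222 peaks at the germinal vesicle (GV) stage, in 577 genes, and 1399 of 22298 peaks at metaphase of the second meiotic division (MII), in 1297 genes. The differential table held 456 of them among 8682 peaks, in 443 genes. All of the genes were annotated as protein coding.

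The study compared bovine oocytes cultured in vitro at the GV stage, when the cell rests in prophase of the first meiotic division, with oocytes at the MII stage, the end point of maturation. No genotype, strain, age or treatment other than the stage is named in the labels. The 12 libraries were 3 of input poly(A) RNA and 3 of RNA precipitated with an antibody against m6A for each stage. Expression was given as FPKM (fragments per kilobase of transcript, scaled to library depth) in the 6 input libraries, whereas each stage had a single peak list, so values of peaks have no replicates and no test between libraries.

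N6-methyladenosine (m6A) is the most common internal modification of messenger RNA and is deposited by a complex with METTL3 as its catalytic subunit. Most sites lie near stop codons and in long exons, while a smaller class lies in the 5' UTR. At the cap itself, the first transcribed base can be m6Am, an adenosine that is also methylated on its ribose and is made by PCIF1, and antibodies against m6A bind it as well. In mammalian cell lines, 5' UTR methylation has been linked to translation that does not depend on the cap-binding complex, as described for heat shock transcripts. A transcriptionally silent oocyte relies on stored messenger RNA, so the start of the transcript, where ribosomes are recruited, is of interest at this transition.

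The labels do not say whether the 3 libraries of a group came from separate animals or cultures, and p-values therefore reflect only the spread among these libraries, which may be technical. Spearman's correlation across genes was 0.983 to 0.987 between input libraries of a stage and 0.912 to 0.918 for pairs from different stages, where genes are not independent replicates. The spacing of low FPKM values implied a depth of 3.53 to 3.56 gigabases, as an estimate, for the GV libraries and of 4.61 gigabases for MII library 3, while the estimates for the other 2 MII libraries moved between 2.75 and 3.46 gigabases with the values used. Of 16675 genes, 3722 to 3765 were listed at 0 in the GV libraries and 1282 to 1727 in the MII libraries. All 10 oocyte markers examined, among them ZP2, GDF9 and BMP15, were at 1 FPKM or more, and their summed level was 1541 to 1555 FPKM at GV and 2357 to 2473 FPKM at MII. Of 12 markers of cumulus and granulosa cells, 9 were in the table and 5 reached 1 FPKM, with a summed level of 215 to 228 FPKM at GV and 199 to 207 FPKM at MII. Most of that sum was STAR, which was higher in every MII library than in any GV library, while the other 4 (VIM, HAS2, PTGS2 and GJA1) were lower in every MII library. Without STAR the sum was 68.0 to 73.3 FPKM at GV and 34.3 to 38.4 FPKM at MII. FSHR was at or near 0 in every library, while HAS2 was present and itself carried a 5' UTR peak at both stages. The part of such cells in the results was not tested.

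A larger share of the MII list than of the GV list lay in 5' UTRs. At GV, 5' UTR peaks made up 4.33% of the list (exact 95% interval 4.00 to 4.68%). At MII they made up 6.27% (5.96 to 6.60%). Both intervals, like those below, cover counting error only. Peaks over start codons moved the same way, from 5.90% to 10.5%, while peaks over stop codons went from 9.30% to 6.18% and 3' UTR peaks were 14.0% and 14.4% of the lists. The 5' UTR share at MII was 5.37% when the MII list was cut to the length of the GV list by the authors' p-value, and 5.94% against 4.40% among genes with a peak at both stages. The stage difference was wider on the minus strand, at 3.42% and 6.37%, than on the plus strand, at 5.21% and 6.21%. Counted by gene, 8.61% of genes with any GV peak and 13.4% of genes with any MII peak carried one in the 5' UTR.

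**Figure D1:**
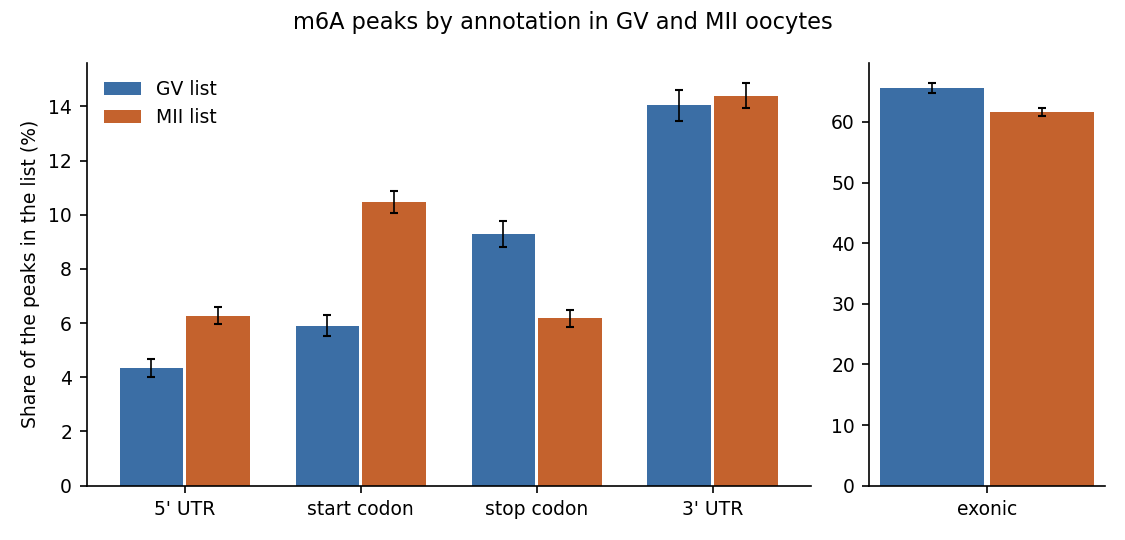
Share of the peaks of each list (percent, vertical axis) by annotation, for the GV list of 14222 peaks and the MII list of 22298 peaks, with exact 95% intervals for counting error and a separate axis for exonic peaks. The 5' UTR and start codon bars are higher for MII, the stop codon bar is higher for GV and the 3' UTR bars are close to each other.

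The 5' UTR peaks crowded against the start of the annotated gene. The median distance from the gene start to the upstream edge of the peak was 118.5 bp at GV and 60 bp at MII. At GV, 185 peaks began at the gene start itself, or 30.0% (26.4 to 33.8%), and at MII 559 did, or 40.0% (37.4 to 42.6%). Within 100 bp of the gene start lay 47.7% of the GV and 55.1% of the MII 5' UTR peaks. Peaks over start codons, the next class along the transcript, began at the gene start in 36.0% of cases at GV and 46.1% at MII, so this stage difference was shared with them. The distances fell on a grid, since 89.8% of GV and 94.5% of MII peaks within 300 bp of the gene start lay within 1 bp of a multiple of 30, which 10% of positions do. Positions below about 30 bp are therefore not resolved, and a peak at the cap cannot be told apart from one just inside the 5' UTR.

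**Figure D2:**
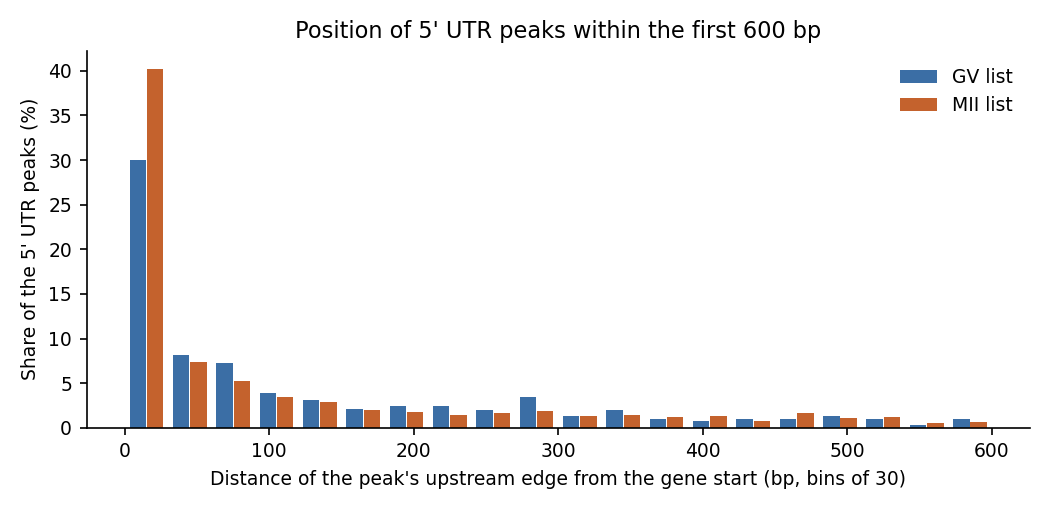
Share of 5' UTR peaks (percent, vertical axis) by the distance of their upstream edge from the annotated gene start (bp, in bins of 30), for the GV and MII lists. The first bin holds 30.0% of GV and 40.2% of MII peaks, and no later bin holds more than 8.12%.

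A minority of the peaks lay elsewhere. The upstream edge was more than 10000 bp inside the gene for 61 GV and 131 MII peaks. Another 13 GV and 15 MII peaks reached past the gene start into the upstream side. The most extreme was in ATAD2, an ATPase with a bromodomain, whose MII peak at chr14:16454611-16476189 began 18668 bp upstream of the gene start, so its assignment to that gene is uncertain. NT5C3B, a nucleotidase gene, likewise had a GV peak that began 1519 bp upstream. All coordinates count from 1, on a genome build that the sources used here do not name.

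5' UTR peaks were short on the genome. Their span, which includes introns, had a median of 210 bp at GV and 238 bp at MII. At most 250 bp were spanned by 57.3% of them at GV and 53.8% at MII, against 34.0% and 33.0% of all peaks. Peaks in 3' UTRs were shorter still, with medians of 181 and 180 bp and 68.2% and 73.0% of at most 250 bp. The longest spans reached 179737 bp and 698152 bp. Among peaks of at most 250 bp, the 5' UTR share of the list was 7.29% at GV and 10.2% at MII.

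Most genes carried a single 5' UTR peak. At GV 543 genes had 1 such peak and 34 had more, and at MII 1205 had 1 and 92 had more. Genes with 4 of them in a list were NACA, which encodes a chaperone of nascent proteins, at GV and ATAD2 at MII, among others. In NACA the GV peaks formed overlapping pairs of near copies. Within a list, 24 GV and 18 MII 5' UTR peaks overlapped another 5' UTR peak of the same gene and strand, and none overlapped one of another gene on the same strand.

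The enrichment of a peak is the authors' own log2 value of immunoprecipitate over input, and it is used here only to describe peaks. At GV the 5' UTR peaks had a median of 2.56, with an interquartile range of 1.62 to 3.04, and at MII the median was 1.75 with a range of 1.21 to 2.57. All peaks had medians of 2.62 and 1.67, so the 5' UTR peaks sat close to their list at both stages. Peaks over stop codons had medians of 2.94 and 1.91. These values are coarse, because 99.2% of GV and 99.7% of MII 5' UTR peaks shared their exact value with another peak of the list, and the GV median of 2.56 is itself a value that 788 peaks of the list shared. The authors' false discovery rate (FDR) was under 0.05 for 425 GV 5' UTR peaks, or 69.0%, against 75.9% of the whole GV list, and for 1064 MII 5' UTR peaks, or 76.1%, against 82.6% of the whole MII list.

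The most enriched GV peak was in SCNN1A, a subunit of the epithelial sodium channel, at 6.83 (chr5:103993858-103994128, plus strand). SUPT7L, a subunit of a transcriptional coactivator complex, followed among genes with the peak inside the gene, at 5.95, and PSMC1, an ATPase of the proteasome, at 5.73. RYBP, a partner of Polycomb complexes, reached 5.35 over chr22:29206404-29207033, from the gene start onwards, and no other GV peak shared its value. PUM2, which binds and represses messenger RNAs, reached 5.17 with a peak 749 bp from the gene start. The genes of these peaks ranged from low to high input levels, from 2.39 ± 0.29 FPKM (SD, n = 3) for SCNN1A to 118 ± 4.3 FPKM for PSMC1 at GV.

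At MII the highest value was 5.67, in HNRNPH3, an RNA-binding splicing regulator, at chr28:24751676-24752194. YTHDF3, a cytoplasmic reader of m6A, was next at 5.35 (chr14:28141155-28145049), and neither value was shared by another MII peak. PUS1, which makes pseudouridine, reached 4.85, and SPIN1, a reader of histone methylation, 4.73. TROAP, DMAC2 and NFATC1 had 4.52, a value that 12 MII peaks shared. In the MII input libraries SPIN1 was at only 0.95 to 1.48 FPKM, DMAC2 at 1.37 to 1.92 FPKM and NFATC1 at 1.68 to 1.98 FPKM. REPIN1, with an enrichment of 4.57, was at only 1.32 to 1.52 FPKM there.

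GV 5' UTR peaks mostly had a counterpart at MII, while most MII 5' UTR peaks had none at GV. An MII peak of any annotation overlapped 416 of 616 GV 5' UTR peaks by 1 bp or more of the same strand, or 67.5% (63.7 to 71.2%), close to the 64.1% of all GV peaks. In the other direction, 347 of 1399 MII 5' UTR peaks overlapped a GV peak, or 24.8% (22.6 to 27.2%), against 39.9% of all MII peaks and 58.4% of MII stop codon peaks. The share of MII 3' UTR peaks was also low, at 28.3% (26.7 to 29.9%). Among peaks at an FDR under 0.05 in both lists, the shares were 74.6% and 23.5%. With 50% reciprocal overlap of the spans, the shares were 33.8% and 14.7%. The GV list is the shorter one, which limits how many MII peaks can find a partner in it.

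Part of the turnover was a change of annotation rather than of place. Of the GV 5' UTR peaks, 279 overlapped an MII peak also annotated 5' UTR, and 116, or 18.8%, overlapped one annotated start codon. By gene, 295 carried a 5' UTR peak at both stages, which is 51.1% of the GV genes and 22.7% of the MII genes. Of 282 genes with one at GV alone, 253 had some peak at MII, and 135 had one over the start codon. Of 1002 genes with one at MII alone, 599 had some GV peak, 105 had one over the start codon, and 403 had no GV peak at all.

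For 249 regions the 5' UTR peaks of the stages overlapped one to one. Their median enrichment was 2.52 at GV and 1.71 at MII, and the median of the differences was -0.38 on the log2 scale, against -0.67 over 6152 such pairs of all annotations. MII was higher in 89 regions, or 35.7%, against 29.0% of all pairs. The upstream edge was at the same base in 110 regions, nearer to the gene start at MII in 84 and farther from it in 55. SCNN1A went from 6.83 to 2.06 and RYBP from 5.35 to 1.70, while YTHDF3 went from 3.39 to 5.35 and ARPP19, an inhibitor of the phosphatase that opposes mitotic kinases, from 0.96 to 3.35.

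**Figure D3:**
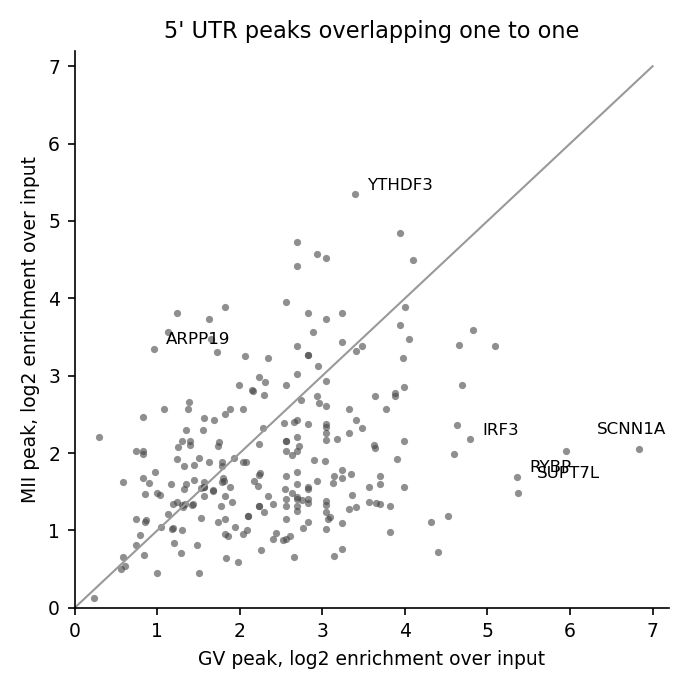
Log2 enrichment over input of 249 5' UTR regions with 1 overlapping peak in each list, GV on the horizontal and MII on the vertical axis, with the line of equal values. Points below the line, such as SCNN1A, SUPT7L, RYBP and IRF3, had the higher value at GV, and 89 regions, YTHDF3 and ARPP19 among them, lie above it.

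Among peaks that differed between stages, those in 5' UTRs were mostly higher at MII in the authors' deposited table. The enrichments in the peak lists ran the other way, with MII higher in 89 of the 249 paired 5' UTR regions, or 35.7%. Such pairs need a peak at both stages, whereas most 5' UTR peaks called higher overlapped no GV peak, as given below. Why these measures differ in direction was not tested. In the authors' deposited table, 420 of the 456 listed 5' UTR peaks had an FDR under 0.05, against 94.0% of all listed peaks. Of these, the authors' deposited table gives 364 as higher at MII and 56 as lower, whereas 63.0% of all listed peaks were called higher and 31.0% lower. Of the called 5' UTR peaks, 86.7% were thus higher at MII in the authors' deposited table (83.0 to 89.8%), against 67.0% of all called peaks, 81.7% of start codon peaks, 66.6% of exonic, 55.8% of 3' UTR and 44.4% of stop codon peaks. The median change in the authors' deposited table was 1.76 for 5' UTR peaks and 1.07 for all called peaks. After the median of all listed peaks, 1.03, was subtracted from the authors' deposited table, 310 of the 5' UTR peaks were higher and 108 lower, or 74.2% higher, against 51.3% of all. Under the authors' own call, a size of at least 1 at a p-value under 0.05, the authors' deposited table gave 323 higher and 50 lower 5' UTR peaks, while 50.9% and 21.9% of all listed peaks were called higher and lower.

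**Figure D4:**
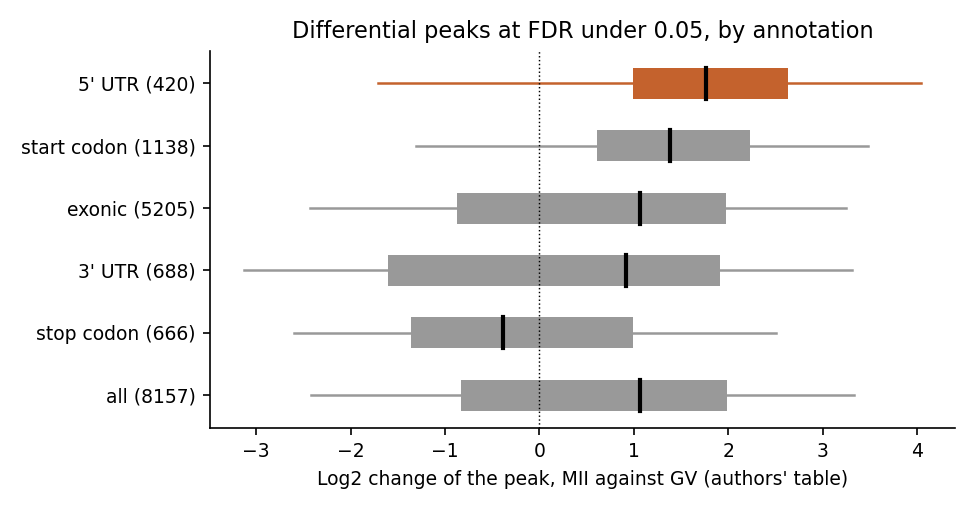
Log2 change of differential peaks, MII against GV, in the authors' deposited table at an FDR under 0.05, by annotation with the number of peaks. Black ticks are medians, boxes span the 25th to 75th percentile and lines the 5th to 95th. The 5' UTR box runs from 0.99 to 2.63 and lies wholly above 0, with a median of 1.76, and the stop codon median is -0.38.

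The share of higher peaks varied with position along the gene. Of called peaks that began at the gene start, 164 were higher and 14 lower at MII in the authors' deposited table, or 92.1%. Of those that began more than 1000 bp inside the gene, 38 were higher and 12 lower in the authors' deposited table, or 76.0%. Split by strand, the share higher in the authors' deposited table was 85.6% for plus-strand and 88.2% for minus-strand 5' UTR peaks, while for all called peaks it was 74.7% and 58.1%. With cuts at the quartiles of input expression over all listed peaks, it was, in the lowest of 4 bins, 78.8% for 5' UTR peaks and 52.1% for all, and in the other bins 89.0 to 89.9% and 64.5 to 78.7% in the authors' deposited table. Of the 364 higher peaks in the authors' deposited table, 69 overlapped a GV peak of any annotation, or 19.0%, against 34.7% of the higher peaks of all annotations and 41.0% of those over start codons. An MII peak was overlapped by 360 of them, or 98.9%, against 99.9% over all annotations. An MII peak itself annotated 5' UTR was overlapped by 271 of the higher peaks, or 74.5%. One annotated start codon was overlapped by 72, or 19.8%, among them those of PIP4K2A and ERCC1 described below. All 56 lower peaks overlapped a GV peak, as did all lower peaks of the authors' deposited table. A GV peak itself annotated 5' UTR was overlapped by 45 of the 56, or 80.4%. One annotated start codon was overlapped by 10, or 17.9%. An MII peak was overlapped by 40 of the 56 (71.4%), against 77.2% over all annotations.

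Some genes had differential peaks at both ends. For 92 genes the authors' deposited table listed both a 5' UTR peak and a peak at the stop codon or in the 3' UTR. No FDR threshold was applied to the listed peaks here. The 5' UTR change was the greater in 62 of these genes and the smaller in 30, with medians of 1.34 and 0.503 in the authors' deposited table. In 35 genes the 5' UTR peak was higher and the 3' end lower at MII, and in 7 genes the reverse was the case in the authors' deposited table. CDC25A, a phosphatase that activates cyclin-dependent kinases, had 2.64 in the 5' UTR and -0.50 in the 3' UTR in the authors' deposited table. A 5' UTR and an exonic peak were both listed for 225 genes. By medians per gene, the 5' UTR was higher and the exonic value lower in 53, and the reverse held in 15. In YTHDF3 the 5' UTR peak changed by 1.42 and an exonic peak by -1.20 in the authors' deposited table. RYBP had -2.65 in the 5' UTR and 0.25 for an exonic peak in the authors' deposited table. The peaks were joined by gene, and whether they lie on the same isoform was not tested.

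The largest gains were in MCM7, a subunit of the replicative DNA helicase, and in SDHB, a subunit of succinate dehydrogenase. In the authors' deposited table the MCM7 peak (chr25:36349499-36349894, plus strand) rose by 6.12. Its input level was 26.8, 25.5 and 24.8 FPKM in GV libraries 1 to 3 and 19.5, 20.0 and 22.2 FPKM in the MII libraries. Every MII library lay below every GV library, a change of -0.31 ± 0.07 (SE) on the log2(FPKM + 1) scale (limma adjusted p = 0.00522). The gene therefore lost input signal while its 5' UTR peak gained. SDHB had 6.05 in the authors' deposited table, and its input level went from 8.17 ± 0.68 to 10.4 ± 0.96 FPKM (SD over 3 libraries, limma adjusted p = 0.0250, lost under 6 of the alternatives, the highest being 0.0824).

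AP4M1, a subunit of an adaptor complex for vesicles, lies head to head with MCM7, and its own 5' UTR peak changed by 5.58 in the authors' deposited table. The MII peaks of these 2 genes overlap by 230 bp on opposite strands. The libraries keep the strand, per the labels' protocols, but the sources used here do not say whether the authors' counting used it, so the gains of this pair may count shared reads. AP4M1 had 4.45, 4.31 and 3.91 FPKM in the GV and 9.79, 8.32 and 8.47 FPKM in the MII input libraries, so its level rose, by 0.91 ± 0.10 (limma adjusted p = 2.05e-04). In all, 3 pairs of peaks at GV and 16 at MII were in genes with starts within 1000 bp of each other on opposite strands. The peaks overlapped in 3 of the GV and 8 of the MII pairs.

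PIP4K2A, a lipid kinase, had 6.01 at chr13:23808182-23808361 in the authors' deposited table, while a peak in its 3' UTR had -1.42. NAPEPLD, an enzyme that makes fatty acid amides, had 5.61 in the 5' UTR and -2.53 for an exonic peak in the authors' deposited table. Its input level was 173, 185 and 174 FPKM in the GV and 116, 112 and 109 FPKM in the MII libraries. Here too the transcript was lower at MII, by 0.66 in size (-0.66 ± 0.04, limma adjusted p = 2.22e-05), and the groups did not overlap. ERCC1, a DNA repair nuclease subunit, had 5.11 and ELP5, a subunit of the Elongator complex, 4.64 in the authors' deposited table. Their input levels were higher at MII, at 7.21 ± 0.34 against 4.52 ± 0.24 FPKM and 23.2 ± 2.2 against 13.5 ± 0.72 FPKM (SD over 3 libraries, limma adjusted p = 0.00133 and 2.41e-04).

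The largest losses were smaller and fewer. TOR1AIP2, a nuclear envelope protein, had -4.06 in the authors' deposited table, in a peak spanning 27098 bp. USP54, of the deubiquitinase family, had -3.39 at chr28:29537882-29538002 in the authors' deposited table. IRF3, an interferon response factor, had -3.30 in a peak at the gene start (chr18:56067853-56068031) in the authors' deposited table, and it was present in both lists, at 4.79 and 2.19. IRF3 was at 5.99, 6.90 and 5.10 FPKM in the GV and 7.68, 7.66 and 9.05 FPKM in the MII libraries, so its input was the higher at MII (0.39 ± 0.12, limma adjusted p = 0.0273, up to 0.0894 under the alternatives that lost the call). ABL1, a tyrosine kinase, had -3.00 and SSH2, a phosphatase that activates the actin-severing protein cofilin, -2.87 in the authors' deposited table. These peaks of TOR1AIP2, USP54, ABL1 and SSH2 lay within GV peaks annotated start codon rather than 5' UTR.

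SCNN1A and RYBP, both among the most enriched GV peaks, were also among the losses, with -2.82 and -2.65 in the authors' deposited table. RYBP had 26.2, 28.2 and 27.1 FPKM in the GV and 31.3, 30.9 and 35.1 FPKM in the MII libraries, a rise of 0.25 ± 0.07 (limma adjusted p = 0.0130, and 0.0558 with median scaling). SCNN1A had 2.46, 2.65 and 2.07 FPKM against 4.19, 2.81 and 3.74 FPKM, a difference of 0.43 ± 0.15 (limma adjusted p = 0.0416) whose call was lost under 9 alternatives, with adjusted p of 0.0564 to 0.144. TNIK, a kinase of Wnt signalling, had -2.67 in the authors' deposited table and input levels that overlapped between the stages.

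**Figure D5:**
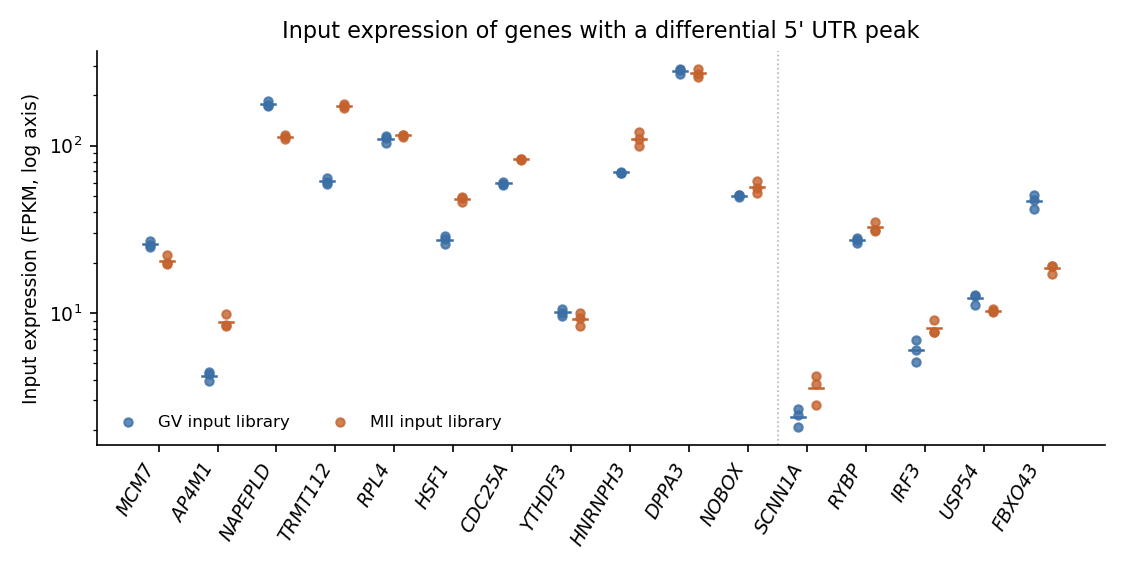
Input expression (FPKM, log axis) of 16 genes with a differential 5' UTR peak, 3 input libraries per stage as points and their means as bars. Peaks of the genes left of the dotted line were higher at MII in the authors' deposited table and those right of it lower, while the libraries show either order on both sides, as for MCM7 and AP4M1 or for RYBP and FBXO43.

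The genes that carry 5' UTR peaks changed in input expression about as often as other genes. In the limma fit over 11739 genes that averaged 1 FPKM or more, 60.8% of genes were called at an adjusted p under 0.05, 32.0% as higher and 28.8% as lower at MII. Of 1579 genes with a 5' UTR peak at either stage, 1491 were tested, and 460 of those (30.9%) were higher and 485 (32.5%) lower. Their median log2 change was -0.01, against 0.01 over all genes tested. Among the 353 tested genes whose 5' UTR peak was called higher in the authors' deposited table, 136 rose and 113 fell, with a median change of 0.02. Among the 53 whose peak was called lower in the authors' deposited table, 19 rose and 17 fell. A gain or loss of the 5' UTR peak thus went with both directions of input expression. In bulk RNA, fewer transcripts per oocyte and a different yield of poly(A) RNA cannot be told apart.

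Among these genes, 78 rose and 16 fell by at least 1 on the log2 scale, or 5.23% and 1.07% of those tested, against 8.90% and 3.15% of all genes tested. AAMDC was listed at 0 in the 3 GV libraries and at 14.6, 15.9 and 20.0 FPKM in the MII libraries, although a GV peak was listed in its 5' UTR. LPCAT3, which remodels membrane phospholipids, had 5.89, 5.19 and 5.60 FPKM at GV and 40.3, 40.7 and 39.5 FPKM at MII (2.65 ± 0.07, limma adjusted p = 4.19e-07). It carried an MII peak of 61 bp at the gene start. The stress-response transcription factor ATF5 went from 2.49 ± 0.72 to 11.0 ± 0.67 FPKM (SD over 3 libraries, limma adjusted p = 7.40e-05) and had a 5' UTR peak of nearly equal enrichment in both lists, 1.79 and 1.83. In the authors' deposited table this peak was nevertheless higher at MII, by 0.641 (authors' FDR 0.0048). That is under the size of 1 in the authors' own call.

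The falls included FBXO43, which restrains the anaphase-promoting complex and so keeps oocytes at metaphase. It had 41.9, 47.2 and 50.8 FPKM at GV and 19.2, 19.1 and 17.1 FPKM at MII, a change of -1.29 ± 0.08 (limma adjusted p = 1.75e-05). Its 5' UTR peak was listed at GV alone, and in the authors' deposited table it changed by -1.39 and the start codon peak by -0.30. SLC35A3, a transporter of nucleotide sugars, changed by -1.35 ± 0.08 (limma adjusted p = 1.29e-05) and ATAD2 by -1.27 ± 0.06 (limma adjusted p = 6.79e-06). RNFT1, a ubiquitin ligase gene, fell from 31.2 ± 2.2 to 11.8 ± 0.89 FPKM (SD over 3 libraries, limma adjusted p = 1.29e-05), while its 5' UTR peak gained 2.14 in the authors' deposited table.

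More highly expressed genes more often carried a 5' UTR peak. Across 4 equal bins of protein-coding genes by expression in the same stage, the share with one was 2.34, 5.01, 6.43 and 6.83% at GV and 7.67, 11.0, 12.8 and 13.0% at MII, from lowest to highest. Among genes that had any peak, the step from the second to the highest bin was small, from 9.12 to 9.70% at GV and from 15.0 to 14.3% at MII. In each of the 4 bins the MII share was the higher.

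Among genes tested for expression, 12.7% carried a 5' UTR peak at either stage, and the share of each group below is set beside that value. These shares were not adjusted for having a peak of any annotation, which 8669 of the 11739 genes tested had at MII. The shares count listed 5' UTR peaks at any authors' FDR. Those at 0.05 or more included the GV peaks of CSTF2 (0.2), EIF4B (0.2) and ZAR1L (0.076). Others were both TOB2 peaks (0.085 at GV and 0.098 at MII) and the MII peaks of EIF4H (0.068) and SF3A1 (0.059). Of the 13 tested writers of m6A and m6Am and their cofactors, none had a 5' UTR peak at GV and 2 did at MII (15.4%), METTL5, which methylates ribosomal RNA, and its activator TRMT112. TRMT112 had 59.2, 60.6 and 63.7 FPKM at GV and 167, 173 and 178 FPKM at MII, a rise of 1.48 ± 0.04 (limma adjusted p = 7.81e-07). Its 118 bp peak at the gene start (chr29:42612961-42613078) gained 4.76 in the authors' deposited table. METTL5 rose from 9.48 ± 0.74 to 12.5 ± 0.37 FPKM (SD over 3 libraries, limma adjusted p = 0.00551), but its 5' UTR peak had an authors' FDR of 0.11.

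Of 18 tested erasers and readers of m6A, 7 carried a 5' UTR peak at MII and the same 7 at either stage (38.9%, against 12.7% of all genes tested). They were FMR1, FXR2, PRRC2B, PRRC2C, YTHDF1, YTHDF2 and YTHDF3, and only YTHDF3 had one at GV. A peak of any annotation was listed at MII for 18 genes of this list. In the authors' deposited table the peaks of FMR1 (1.86), YTHDF3 (1.42), FXR2 (1.19) and YTHDF1 (1.19) were called higher at MII and none was called lower. Of all called 5' UTR peaks, 86.7% were higher. Their expression did not move as one group, since FMR1 fell from 39.2 ± 0.23 to 28.4 ± 0.91 FPKM (SD over 3 libraries, limma adjusted p = 1.58e-04) and FXR2 rose from 46.6 ± 1.9 to 60.4 ± 0.81 FPKM (limma adjusted p = 3.46e-04). YTHDF3 had 10.1 ± 0.49 FPKM at GV and 9.23 ± 0.79 FPKM at MII, and the groups overlapped (SD over 3 libraries, limma adjusted p = 0.300).

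Of 23 tested genes of cap formation and cap binding, 5 carried a 5' UTR peak (21.7%, against 12.7% of all genes tested), with EDC4, a decapping scaffold, at GV, and CMTR1, EIF4ENIF1, LARP4B and RNGTT at MII. The GV peak of EDC4 lay within an MII peak annotated start codon. CMTR1, which methylates the ribose of the first transcribed base, was at 95.6 ± 0.89 and 94.8 ± 0.86 FPKM (SD over 3 libraries, limma adjusted p = 0.794). Of 39 tested initiation factors, 5 carried one (12.8%, about the share of all genes), EIF1AX at GV, EIF4B at both stages, and EIF3M, EIF4G1 and EIF4H at MII. EIF1AX had 83.4, 91.1 and 88.4 FPKM at GV and 232, 232 and 227 FPKM at MII (1.38 ± 0.04, limma adjusted p = 8.08e-07). Its 60 bp 5' UTR peak was listed at GV alone, and an MII peak annotated start codon began at its last base. At an FDR under 0.05, 3 peaks of this list were higher in the authors' deposited table and none lower, while 86.7% of all called 5' UTR peaks were higher. They were EIF5A at 3.48, EIF3M at 2.09 and EIF5 at 0.969, the last under the size of 1 in the authors' own call. The EIF5A peak lay within an MII peak annotated start codon.

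Of 31 heat shock and stress genes, SERP1 carried a 5' UTR peak at GV and 6 others at MII, HSF1, HSPA14, HSPA2, HSPA9, HSPD1 and PPP1R15A, or 22.6% against 12.7% of all genes tested. The GV peak of SERP1 lay within an MII peak annotated stop codon. HSF1, the main transcription factor of the heat shock response, had 27.5, 29.0 and 25.7 FPKM at GV and 45.8, 49.0 and 48.5 FPKM at MII. It rose by 0.78 ± 0.06 (limma adjusted p = 3.56e-05), and its peak at chr14:633840-634139 (minus strand) gained 3.77 in the authors' deposited table. HSPA2, a heat shock protein of germ cells, rose from 143 ± 2.5 to 163 ± 3.5 FPKM (SD over 3 libraries, limma adjusted p = 0.00303), while HSPA9 fell from 80.3 ± 3.4 to 62.4 ± 4.4 FPKM (limma adjusted p = 0.00149).

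Oocyte and cell cycle genes were marked in 8.33% and 14.9% of those tested, beside 12.7% of all genes. Of 36 tested oocyte and maternal effect genes, ZAR1L, which binds stored messenger RNAs, carried a 5' UTR peak at both stages, and DPPA3 and NOBOX at MII. NOBOX, a transcription factor of early oocytes, had a peak that gained 2.83 (chr4:107672058-107672236) and DPPA3, which in the mouse shields the maternal genome from demethylation, one that gained 1.86 in the authors' deposited table. DPPA3 had 267, 288 and 284 FPKM at GV and 286, 257 and 269 FPKM at MII, which overlap. ZAR1L rose from 158 ± 14 to 299 ± 9.4 FPKM (SD over 3 libraries, limma adjusted p = 2.66e-05). Of 67 tested meiosis and cell cycle genes 10 were marked, 4 at GV and 8 at MII, with CDC25C and ARPP19 at both. The level of CDC25A was 58.9, 58.4 and 60.8 FPKM at GV and 82.1, 83.6 and 83.0 FPKM at MII, so it rose (0.48 ± 0.04, limma adjusted p = 4.58e-05) along with the gain of its 5' UTR peak. CDC20, which switches on the anaphase-promoting complex, fell from 31.9 ± 1.6 to 24.6 ± 1.5 FPKM (SD over 3 libraries, limma adjusted p = 0.00211).

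Regulators of messenger RNA decay and of chromatin were marked in 26.3% and 24.6% of tested genes, against 12.7% of all genes tested. A peak of any annotation was listed at MII for 49 genes of the decay list and 62 of the chromatin list. Of 57 tested genes of decay and poly(A) control, 15 carried a 5' UTR peak, 7 at GV and 12 at MII. CNOT1, the scaffold of the main deadenylase, CPEB4, CSTF2 and TOB2 were marked at both stages. Of the 15, 4 rose and 6 fell, while 32.0% of all genes tested rose and 28.8% fell. CPEB3, a cytoplasmic polyadenylation factor with an MII peak, had 4.80, 5.54 and 3.89 FPKM at GV and 15.6, 14.9 and 15.1 FPKM at MII (1.50 ± 0.12, limma adjusted p = 3.79e-05). TENT4A, a poly(A) polymerase, fell from 146 ± 1.3 to 86.7 ± 4.1 FPKM (SD over 3 libraries, limma adjusted p = 1.22e-05). Of 65 tested chromatin genes, 16 carried one, of which 5 rose and 7 fell. ATRX, KAT6B and SUV39H2 were marked at both stages, and SMARCA5, a chromatin remodeller with an MII peak, fell from 228 ± 0.86 to 135 ± 5.1 FPKM (SD over 3 libraries, limma adjusted p = 6.89e-06). Of 45 tested splicing factors 4 carried one (8.89%), SRSF4 and SRSF5 at both stages and HNRNPH3 and SF3A1 at MII, and HNRNPH3 rose from 69.1 ± 0.52 to 110 ± 9.8 FPKM (SD over 3 libraries, limma adjusted p = 1.02e-04).

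Ribosomal protein genes had the lowest share of the 12 lists. Of 77 tested, none had a 5' UTR peak at GV and 3 had one at MII, RPL10A, RPL4 and RPS9, which is 3.90%. A peak of any annotation was listed for only 16 of the 77 at GV and 42 at MII. The list as a whole moved in expression, with 69 of the 77 genes higher and 1 lower and a median change of 0.90. Of all genes tested, 32.0% were higher and 28.8% lower, with a median change of 0.01. RPL4 had 103, 111 and 114 FPKM at GV and 116, 113 and 116 FPKM at MII, levels that overlapped, while its peak at the gene start gained 4.39 in the authors' deposited table. Of 11 tested cumulus and granulosa genes, HAS2, which makes hyaluronan, carried a 5' UTR peak at the same 150 bp (chr14:18093101-18093250) at both stages, and NPR2 at MII. HAS2 was at 32.7 to 35.4 FPKM at GV and 20.7 to 22.3 FPKM at MII.

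The genes with a 5' UTR peak often had other peaks. At GV 62.0% of them also had an exonic peak, 17.5% one at the stop codon and 18.7% one in the 3' UTR, against 73.0%, 19.6% and 24.1% of all genes with a peak. At MII these shares were 63.1%, 12.7% and 25.3%, against 72.0%, 14.2% and 24.7%. A start codon peak was found in 11.8% of them at GV and 13.9% at MII, against 12.5% and 24.2% of all genes with a peak. No other peak was listed for 24.3% of the GV and 20.8% of the MII genes. Since a peak that spans both a 5' UTR and a start codon receives 1 annotation, the start codon shares are not independent of how peaks were labelled.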

How the data were processed

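Per the labels' protocols, poly(A) selection started from 50 µg of total RNA, fragments were bound with an m6A antibody, and the libraries keep the strand. The tools named, without roles, are HISAT2 2.0.4, StringTie 2.1.2, fastp 0.19.4, HOMER 4.10 and edgeR 4.1, per the submitters' processing notes. The sources used here do not give the peak caller, genome build, annotation release or the way libraries were combined into 1 list per stage. The authors deposited FPKM per gene and input library. The deposited log2 values are immunoprecipitate over input in the peak lists and MII against GV in the differential table, and the p-values and FDR are also the authors'. Other deposited columns give positions, counted from 0 in the files and from 1 here.

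Stages were compared on log2(FPKM + 1) of the input libraries, which understates the change of low genes, with limma 3.58.1 (R 4.3.3, eBayes with trend, 2-sided) over genes averaging 1 FPKM or more, with Benjamini-Hochberg adjustment at 0.05 over all of them. The fit was tested on simulated data. No count test was possible, since the FPKM steps gave too few whole reads. Peaks overlapped if they shared 1 bp and the strand. Shares have exact Clopper-Pearson 95% intervals. Tables were joined in Python 3.11.15 with pandas 2.3.3 and SciPy 1.17.1.

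The regions, the 12 gene lists and the naming rule were chosen with earlier results of these data known. Named were the 8 highest peaks of each list by enrichment, the 8 largest gains and 8 largest losses among differential peaks (FDR under 0.05), the 6 largest rises and falls of expression (mean of at least 5 FPKM, stages not overlapping), the 6 genes with the most 5' UTR peaks, and members of the lists with such a peak. The text gives a part of them. Alternatives were other pseudocounts, filters, scalings, a variance model without trend, each library left out, a replicate block, and other thresholds, overlaps and subsets of peaks. Sequences were not used here, because no genome sequence was given, and single immunoprecipitated libraries were not analysed here.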

Additional observations from a re-analysis of the deposited data

How the results depend on the processing

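The MII share of 5' UTR peaks stayed above the GV share under all 8 alternatives. The shares of the GV and MII lists were 3.94% and 5.78% at an FDR under 0.05, 3.88% and 6.68% above the median enrichment, 7.29% and 10.2% for spans up to 250 bp, 5.21% and 6.21% on the plus and 3.42% and 6.37% on the minus strand, and 8.61% and 13.4% by gene. With lists of the same number of peaks the MII share was 5.37%, and among genes with a peak at both stages 5.94%. The GV and MII shares overlapping were 33.8% and 14.7% at 50% reciprocal overlap and 45.3% and 19.9% when both peaks had to be annotated 5' UTR, and the GV share was 74.6% at an FDR under 0.05. Overlap of exonic blocks was not run because block positions were not used here. In the authors' deposited table, 35 5' UTR peaks were lower at an FDR under 0.01 and 108 after centring on the median of all listed peaks. Among subsets chosen after seeing the data, the share higher in the authors' deposited table was 78.8% in the lowest and 89.9% in the second of 4 bins by expression.

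Of genes with a 5' UTR peak, 411 to 427 were higher and 421 to 444 lower in limma when 1 library was left out, and 397 and 565 with median scaling. Replicate numbers did not pair the libraries, since deviations of same-numbered libraries correlated at -0.055, -0.06 and 0.013. With the number as a replicate block, 444 were higher and 447 lower. Of 128 named genes tested, 21 changed their call under some alternative and none changed direction, with 60 of 1907 combinations losing the call and 11 gaining it. The single peak list per stage, shared enrichment values and the grid of 30 bp limit what the peaks resolve.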
